A study of Homo sapiens with 5 samples.

Results

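The CLK, HIPK and SRPK kinases and PRPF4B were followed in RPE-1, a human cell line immortalized from retinal pigment epithelium, after knock-down of FAM53C. The 10 genes were chosen by name and family: CLK1, CLK2, CLK3 and CLK4, HIPK1, HIPK2 and HIPK3, SRPK1 and SRPK2, and PRPF4B, out of 64252 gene identifiers in the table. Of the 10, 9 had enough counts to be tested, among 15341 genes tested in all, and CLK2 was listed at 0 counts in each library. Cells wild-type by the labels received ON-TARGET Control #1 siRNA (siCtrl, n = 3 libraries) or an ON-TARGETplus siRNA pool against FAM53C (siFAM53C, n = 2), each at 5 µM with RNAiMAX, and polyadenylated RNA was sequenced 48 hr later. The methods state duplicates per condition, and here no control was set aside: the 3 siCtrl libraries were all compared with the 2 siFAM53C libraries. A single cell line and a single pool were used. Nothing in the labels says that the libraries of a group came from separate cultures, so the p-values measure the spread between these libraries, which may be technical.

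CLK, HIPK, SRPK and DYRK kinases and PRPF4B belong to the CMGC branch of the protein kinases. SRPK kinases phosphorylate the arginine- and serine-rich (RS) domains of SR splicing factors and so promote their entry into the nucleus. CLK kinases act on SR proteins inside the nucleus, autophosphorylate on tyrosine, and phosphorylate other residues on serine and threonine. PRPF4B phosphorylates proteins of the U4/U6.U5 tri-snRNP, the particle that joins the spliceosome before its activation. HIPK kinases are nuclear kinases that act on transcription factors and co-repressors, among them CtBP. CLK and HIPK kinases are related to the DYRK family, which includes DYRK1A, the kinase that the study examined together with FAM53C, and inhibitors of DYRK1A often also bind CLK kinases. The comparison asks whether the messenger RNAs of these relatives changed with FAM53C knock-down. Gene counts do not show protein or kinase activity.

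FAM53C, the targeted gene, had 1434, 1141 and 1099 counts in siCtrl and 375 and 525 in siFAM53C. FAM53C shares 704 exon bases with genes on the opposite strand, CDC25C among them, so its value is uncertain if the counting did not use strand. Its log2 fold change was -1.71 (SE 0.19, adjusted p = 0.003625, Benjamini-Hochberg adjusted, quasi-likelihood test in edgeR). Library totals ranged from 19260124 to 25615415 counts. siCtrl replicate 3 and siFAM53C replicate 2 stood apart from the other siCtrl libraries on the first principal component (39.8% of variance), at 33.7 and 44.9, against -31.5 and -47.4 for siCtrl replicates 1 and 2 and 0.264 for siFAM53C replicate 1. They also had the highest mitochondrial shares, 4.51% and 4.79%, against 3.56% to 3.89% in the others. Because this split crosses the conditions, differences are also given within 2 sides: siFAM53C replicate 1 against siCtrl replicates 1 and 2, and siFAM53C replicate 2 against siCtrl replicate 3. The sides, and the term for the library split used below, were set by the number 3 in the column names of siCtrl replicate 3 and siFAM53C replicate 2. The first component alone does not place siFAM53C replicate 1, at 0.264, on either side. The line was checked against markers. KRT8 and KRT18, epithelial keratins, were at 236 to 328 and 148 to 182 CPM (counts scaled for library size, with TMM factors). Of the other epithelial markers, KRT7 was at 5.8 to 10.6 CPM and TJP1 at 9.4 to 13.6 CPM, and KRT19 had at most 5 counts. MITF, a regulator of pigment cells, was at 34 to 48.8 CPM. Of the other pigment epithelium markers, SERPINF1 had 20 to 79 counts per library and BEST1 4 to 15, TYR had at most 2 and RLBP1 at most 1, and the visual cycle gene RPE65 was listed at 0 in all 5 libraries. The 10 genes listed as markers of other cell types had at most 20 counts in any library. The endothelial PECAM1 had 4 to 20, and the leukocyte marker PTPRC had 20 in siCtrl replicate 3 and 2 to 5 elsewhere. EPCAM and CDH1, which are epithelial genes but were placed in this list, had at most 4 and 3 counts. CD3E and CDH5 were listed at 0 throughout. A listed 0 in this table is no measure of absent expression, as set out below for CLK2.

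HIPK2 fell about 4-fold, and none of the other 8 tested kinases passed the test. HIPK2 is a kinase activated after DNA damage and is itself turned over by ubiquitin ligases such as SIAH1 and WSB1. Its counts were 6712, 6826 and 5369 in siCtrl and 2215 and 1648 in siFAM53C, or 285, 357 and 281 CPM against 83.7 and 69.9 CPM. Both siFAM53C libraries lay far below every siCtrl library. The means were 308 ± 42.8 CPM (SD, n = 3) and 76.8 ± 9.74 CPM (SD, n = 2), and the log2 fold change was -2.002 (SE 0.16, 95% confidence interval -2.37 to -1.64, adjusted p = 0.0009627, Benjamini-Hochberg adjusted, quasi-likelihood test in edgeR). On the linear scale HIPK2 was 4.01-fold lower (interval 3.11 to 5.16). Its log2 differences on the 2 sides of the split were -1.93 and -2.01. HIPK2 passed the test in all 13 alternative fits that gave a p, with log2 fold changes from -2.14 to -1.88 over these fits and the within-side values, and adjusted p from 1.174e-37 to 0.01067. The smallest adjusted p came from the fit with no filter on low counts, whose SE of 0.15 was close to that of the main test. It therefore does not reflect a much smaller spread between the libraries.

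Of the 9 tested kinases 1 was called lower and 0 higher (adjusted p under 0.05), where 3.47% of all tested genes were called lower and 0.489% higher. Before adjustment (p under 0.05) the counts were 1 lower and 1 higher, where 10.5% and 6.61% of all genes passed. The median log2 fold change of the 9 kinases was 0.07, beside 0.02 for all tested genes. Both siFAM53C libraries lay below every siCtrl library in 1 kinase and above in 1, as they did in 18.8% and 16.7% of all tested genes. Ordered by log2 fold change, HIPK2 was the 29th lowest of the 533 genes called lower, and the 30th lowest of the 9301 tested genes with a mean of at least 10 CPM.

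**Figure D1:**
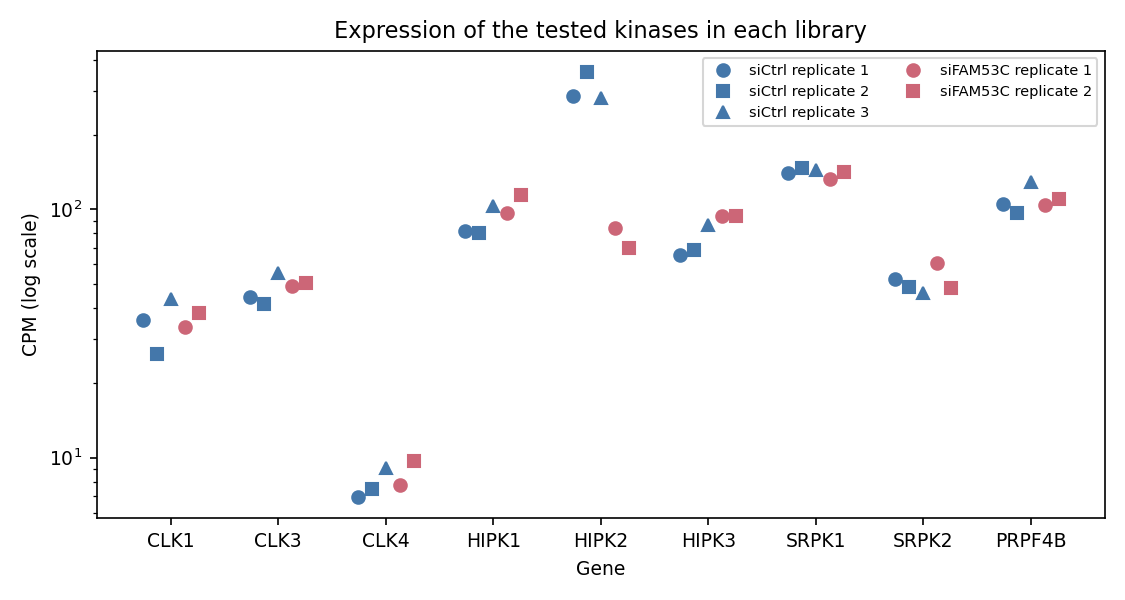
CPM of each of the 9 tested kinases (log axis) in the 3 siCtrl and 2 siFAM53C libraries, each point being a library, siCtrl in blue and siFAM53C in red. HIPK2 is the gene whose groups are widely apart, at 281 to 357 CPM against 69.9 to 83.7 CPM.

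**Figure D2:**
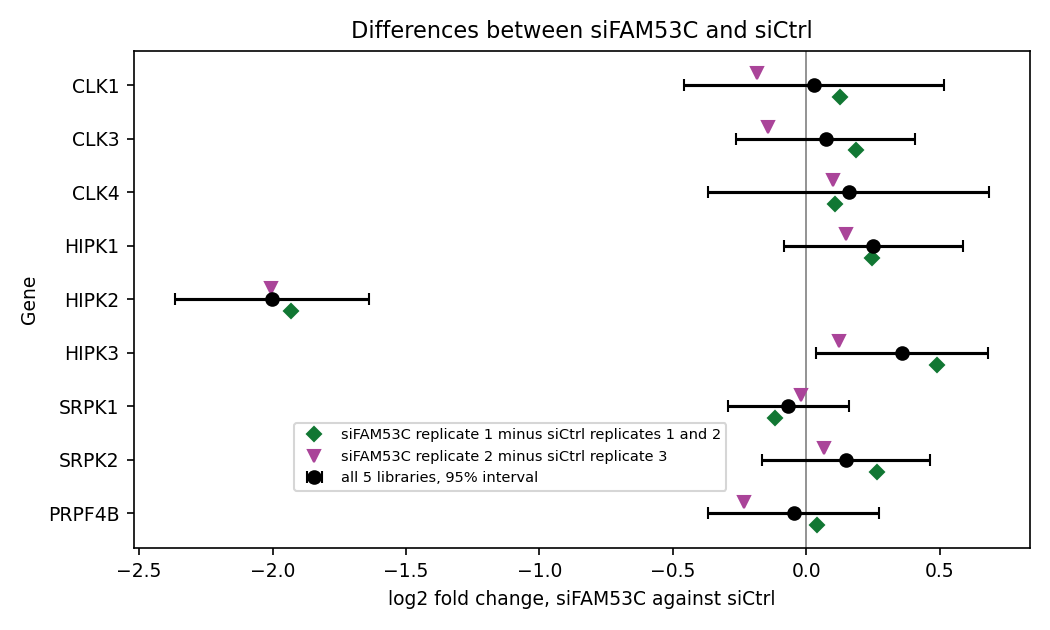
Log2 fold change of siFAM53C against siCtrl for the 9 tested kinases (black points, with 95% confidence intervals from edgeR), and the differences on each side of the library split (green diamonds and purple triangles). HIPK2 lies at -2.002, and the black points of the other 8 lie between -0.07 and 0.36.

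HIPK2 lies at chr7:139561570-139777998 on the minus strand (GRCh38, GENCODE 44), and no annotated exon on the opposite strand shares its exon bases. Its longest annotated 3′ UTR, 11357 bases, holds the heptamer GACAAGA at 2 places, and HIPK1 and CLK3 hold it once each. The heptamer was searched on the transcript strand only and is shown because earlier results of these data tied it to lower fold changes. It is therefore not independent of these libraries. Each window below is genome sequence of GRCh38 written 5′ to 3′ along the transcript, with the heptamer in capitals.
HIPK2 site 1, chr7:139565668-139565696, minus strand, 3′ UTR position 7242: ggtggaagaaaGACAAGActtagaggaac
HIPK2 site 2, chr7:139562924-139562952, minus strand, 3′ UTR position 9986: caaatgaaataGACAAGAaagtcatactt
HIPK1, chr1:113976403-113976431, plus strand, 3′ UTR position 2902: tttctgtaaggGACAAGAtttgttgtttt
CLK3, chr15:74636657-74636685, plus strand, 3′ UTR position 1541: gggaggaagatGACAAGAtgttgtcaagc

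The 4 windows share the heptamer. Of the kinases that hold it, HIPK2 fell, while HIPK1 and CLK3 did not pass the test, with log2 fold changes of 0.25 and 0.07. The share of genes that hold the heptamer varied with 3′ UTR length. Among the 500 tested genes nearest in 3′ UTR length, 42.8% held at least 1 site for HIPK2, 25.2% for HIPK1 and 41.4% for CLK3. In the 3′ UTR of the MANE transcript, the reference transcript chosen for each gene, the site of CLK3 is absent, since that 3′ UTR is 318 bases long, and HIPK1 and HIPK2 hold theirs. Across the 12075 tested genes with an annotated 3′ UTR, 1400 (11.6%) held the heptamer. Of the 10675 genes with no site 2.92% were called lower, of the 1237 with 1 site 13.9%, and of the 163 with 2 or more 24.5%, with median log2 fold changes of 0.02, -0.17 and -0.27. The median 3′ UTR length also rose over these groups, from 1386 to 3194 and 5294 bases, and its part in the shares was not tested. These shares describe the same libraries in which the heptamer was found, and whether the sites have a part in the fall of HIPK2 was not tested.

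HIPK3 and HIPK1, the close paralogs of HIPK2, had log2 fold changes above 0 that did not pass the test. HIPK3, a kinase linked to Fas signalling and steroid hormone gene expression, was at 65.2, 68.3 and 86.4 CPM in siCtrl and 93.8 and 94.2 CPM in siFAM53C. Both siFAM53C libraries were above every siCtrl library, by the least over siCtrl replicate 3. The log2 fold change was 0.36 (SE 0.14, interval 0.04 to 0.68, unadjusted p = 0.03328, adjusted p = 0.2407, Benjamini-Hochberg adjusted, quasi-likelihood test in edgeR), which did not pass the threshold. On the 2 sides of the split it differed by 0.49 and 0.12. HIPK3 passed without siCtrl replicate 3 (0.50, adjusted p = 0.01557), with a replicate block by titles (0.49, adjusted p = 0.02302) and with a term for the split (0.34, adjusted p = 0.02241). In the block by titles siCtrl replicate 3 has no siFAM53C partner, so the first 2 of these settings are nearly the same. HIPK3 was called in 3 of the 13 alternatives with a test. With the split term 6.76% of all tested genes were called higher.

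HIPK1, a kinase that acts on the co-repressor Daxx, was at 82.0, 80.3 and 103 CPM in siCtrl and 96.3 and 114 CPM in siFAM53C. The groups overlapped, since siCtrl replicate 3 was above siFAM53C replicate 1. The log2 fold change was 0.25 (SE 0.14, interval -0.08 to 0.59, adjusted p = 0.4395, Benjamini-Hochberg adjusted, quasi-likelihood test in edgeR). HIPK1 shares 172 exon bases with HIPK1-AS1 on the opposite strand, which makes its value uncertain if the counting did not use strand. HIPK4, the remaining paralog, had 9, 4 and 5 counts in siCtrl and 0 in both siFAM53C libraries, too few to test, and overlaps PLD3 on the opposite strand over 1367 exon bases.

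With HIPK2 lower, the make-up of the HIPK messages differed. Shares were taken of the summed CPM per kilobase of exon of HIPK1, HIPK2 and HIPK3, which does not depend on library scaling. HIPK2 held 51.8%, 57.1% and 45.2% of the sum in siCtrl and 19.6% and 15.7% in siFAM53C. HIPK1 held 25.5%, 21.9% and 28.3% against 38.5% and 43.8%, and HIPK3 22.7%, 20.9% and 26.6% against 42.0% and 40.5%. No siFAM53C library overlapped a siCtrl library in any of these shares, which must rise for HIPK1 and HIPK3 when HIPK2 falls. The sum itself was 35.2, 40.0 and 39.9 CPM per kilobase in siCtrl and 27.4 and 28.5 in siFAM53C, so every siFAM53C library lay below every siCtrl library.

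**Figure D3:**
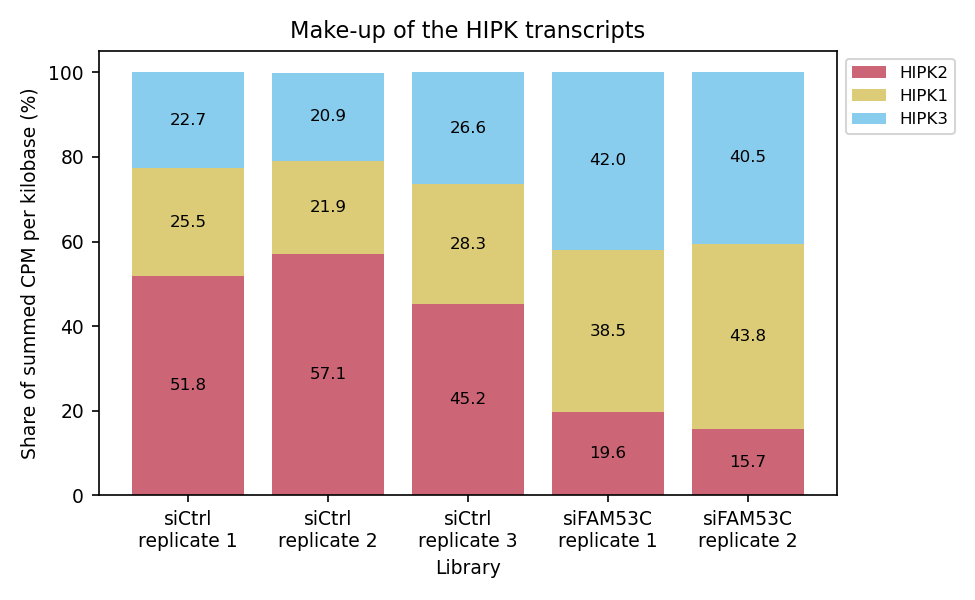
Share of HIPK1, HIPK2 and HIPK3 in their summed CPM per kilobase of exon, in percent, as a stacked bar for each of the 5 libraries. HIPK2 takes 45.2% to 57.1% of the siCtrl bars and 15.7% to 19.6% of the siFAM53C bars.

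Among tested genes with a mean of at least 10 CPM, the 3 whose levels over the 5 libraries were nearest to those of HIPK2 were TMEM64, KDELR1 and ANTXR2. Nearness was the Euclidean distance between mean-centred log2 CPM values, which was 0.172, 0.257 and 0.291. Their log2 fold changes were -1.96, -2.15 and -2.07, which lie near that of HIPK2 because the genes were picked for nearness in these libraries. Their longest 3′ UTRs, of 3676, 718 and 6283 bases, held 0, 1 and 2 GACAAGA sites.

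None of the CLK kinases passed the test in either direction. CLK1, which phosphorylates SR proteins and whose own transcript is controlled by retained introns, was at 35.9, 26.1 and 43.5 CPM in siCtrl and 33.5 and 38.3 CPM in siFAM53C. The siFAM53C values lay inside the siCtrl range, which siCtrl replicates 2 and 3 set. The log2 fold change was 0.03 (SE 0.21, interval -0.46 to 0.52, adjusted p = 0.9701), with 0.13 and -0.18 within the sides of the split. GENCODE 44 annotates 14 CLK1 transcripts, 8 of them as retained intron and 3 as protein-coding, and counts per gene pool them, so a change in intron retention could not be seen.

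CLK3, which also phosphorylates SR proteins, was at 44.3, 41.6 and 55.5 CPM in siCtrl and 48.9 and 50.3 CPM in siFAM53C. Its siFAM53C values also lay inside the siCtrl range, and the log2 fold change was 0.07 (SE 0.14, interval -0.26 to 0.41, adjusted p = 0.8603). It shares 1180 exon bases with genes on the opposite strand, EDC3 among them. CLK4, the closest relative of CLK1, was the lowest of the tested kinases, at 6.96, 7.48 and 9.06 CPM in siCtrl and 7.79 and 9.72 CPM in siFAM53C. With 143 to 229 counts per library its log2 fold change was 0.16 (SE 0.23, interval -0.37 to 0.69, adjusted p = 0.7957). The intervals of CLK1 and CLK4 allow changes of up to 0.52 and 0.69 on the log2 scale, and a failed test does not show that their levels were equal.

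CLK2 (chr1:155262868-155278491, minus strand) was listed at 0 in all 5 libraries, and no level or difference can be given for it. Neighbouring genes on chromosome 1 were listed nearly as low: SCAMP3 and ENTREP3 had 1 count each over the 5 libraries. Further away, FDPS had 1060 to 2267 counts per library. PRPF8, a core spliceosome protein that dividing cells need, had 2 counts in all, and 4784 of 19550 protein-coding genes were listed at 0. A listed 0 in this table is therefore no measure of absent expression, and why these genes are at 0 was not tested.

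Within the CLK family the shares of the summed level per kilobase were 62.5% to 69.2% for CLK1, 22.2% to 25.9% for CLK3 and 8.66% to 11.6% for CLK4 over the 3 siCtrl libraries. The siFAM53C libraries gave 65.4% and 66.5%, 24.8% and 22.6%, and 9.82% and 10.9%, all within the siCtrl ranges. These shares leave out CLK2.

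The SRPK kinases and PRPF4B did not pass the test either, and SRPK1 was the most evenly measured of the group. SRPK1, the main cytoplasmic SR protein kinase in many cell types, was at 139.7, 147 and 143.9 CPM in siCtrl and 132.3 and 141.8 CPM in siFAM53C. siFAM53C replicate 2 lay within the siCtrl range and replicate 1 below it. The log2 fold change was -0.07 (SE 0.10, interval -0.29 to 0.16, adjusted p = 0.8047). SRPK1 shares 1879 exon bases with LHFPL5 on the opposite strand. SRPK2, which phosphorylates SR proteins and tri-snRNP proteins, was at 52.6, 48.5 and 45.8 CPM in siCtrl and 60.7 and 48.0 CPM in siFAM53C. Its log2 fold change was 0.15 (SE 0.14, interval -0.16 to 0.47, adjusted p = 0.6515). siFAM53C replicate 1 was the highest library and replicate 2 lay among the controls. SRPK2 shares 505 exon bases with genes on the opposite strand, KMT2E among them. SRPK1 made up 75.5% to 78.4% of the summed SRPK1 and SRPK2 level per kilobase in siCtrl, and 71.6% and 77.4% in siFAM53C. SRPK3, a kinase best known from muscle, had 11 to 18 counts in siCtrl and 26 and 31 in siFAM53C. Its log2 fold change was 0.70 (SE 0.54, adjusted p = 0.5815), and it shares 1432 exon bases with PLXNB3 on the same strand.

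PRPF4B was at 105.2, 96.7 and 128.7 CPM in siCtrl and 103.7 and 109.5 CPM in siFAM53C, inside the siCtrl range. Its log2 fold change was -0.05 (SE 0.14, interval -0.37 to 0.27, adjusted p = 0.9103). The differences within the sides of the split had opposite signs, 0.04 and -0.23.

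Levels were compared between the kinases as CPM per kilobase of the union of annotated exons. In siCtrl the order was SRPK1 (mean 21.4, range 20.9 to 22), HIPK2 (19.7, 18 to 22.9), PRPF4B (13.1, 11.5 to 15.3), HIPK1 (9.67, 8.78 to 11.3), HIPK3 (8.98, 7.99 to 10.6), CLK1 (6.88, 5.10 to 8.51), SRPK2 (6.32, 5.91 to 6.78), CLK3 (2.39, 2.11 to 2.82) and CLK4 (0.989, 0.879 to 1.14). SRPK1 and HIPK2 overlapped, as did HIPK1 with HIPK3, HIPK3 with CLK1, and CLK1 with SRPK2, and the other neighbours did not. The highest level was 21.7 times the lowest. SRPK1 and HIPK2 were above 86.4% and 85.0% of the genes with a level, and CLK4 above 26%. In siFAM53C HIPK2 was at 4.48 and 5.36 CPM per kilobase, which placed it 7th of the 9, below SRPK2 and CLK1 at means of 7.01 and 7.02 and above CLK3 at 2.52. By mean the other 8 kept their order, with HIPK1 and HIPK3 both at 11.5. In siFAM53C PRPF4B overlapped HIPK1, HIPK1 overlapped HIPK3 and CLK1 overlapped SRPK2, so the order within these pairs is not firm.

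**Figure D4:**
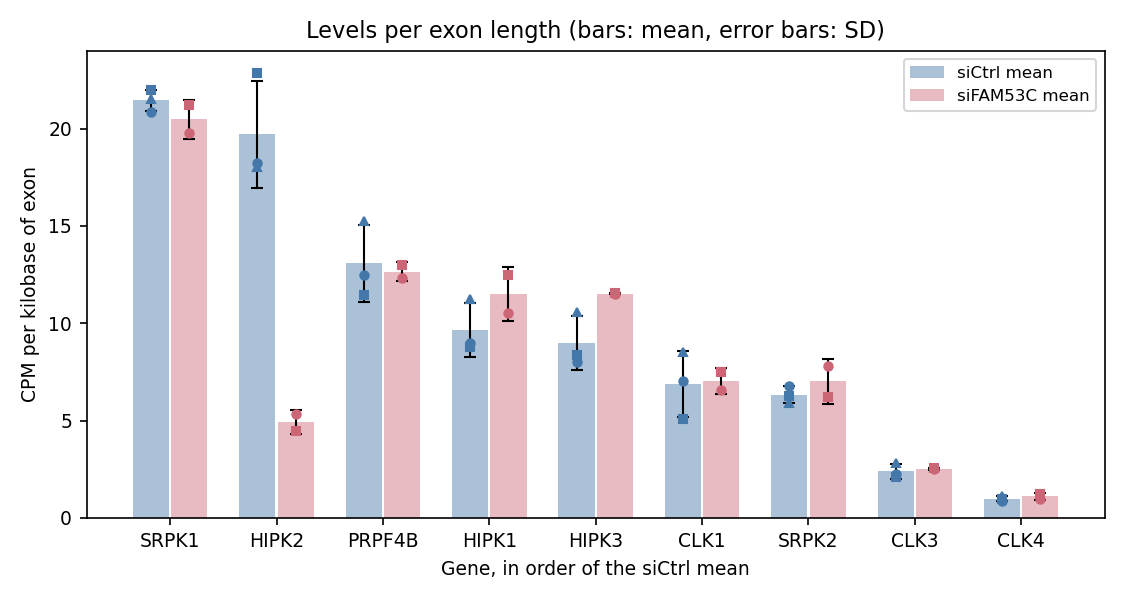
CPM per kilobase of exon of the 9 tested kinases, ordered by the siCtrl mean, with bars for the mean of siCtrl (blue) and siFAM53C (red), error bars for the SD and points for the libraries. The siCtrl means run from 21.4 for SRPK1 to 0.989 for CLK4, and HIPK2 is the kinase that leaves its place in siFAM53C, at a mean of 4.92.

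The order depends on the length used. With the longest annotated transcript in place of all exons, CLK1 stood at 10.97 and HIPK1 at 10.8 CPM per kilobase in siCtrl, SRPK1 at 30.1, HIPK2 at 20.1 and CLK4 at 2.11.

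Of the 5 DYRK kinases, all tested, 1 was called lower and 0 higher, where 3.47% and 0.489% of all tested genes were called. DYRK2, a kinase that also takes part in the DNA damage response, was at 47.5, 42.1 and 47.9 CPM in siCtrl and 24.9 and 19.7 CPM in siFAM53C. Both siFAM53C libraries were below all controls, with DYRK2 at a log2 fold change of -1.04 (SE of 0.15, adjusted p = 0.009589, Benjamini-Hochberg adjusted, quasi-likelihood test in edgeR). The call was lost without siCtrl replicate 1 (-1.01, adjusted p = 0.06569) or without siFAM53C replicate 2 (-0.88, adjusted p = 0.0782), in a range from 7.589e-09 to 0.0782 over the alternatives. The smallest adjusted p for DYRK2 came from the fit with no filter on low counts, at an SE of 0.16, close to that of the main test. The log2 fold changes of DYRK1A, DYRK1B, DYRK3 and DYRK4 were -0.13, 0.29, 0.28 and -0.13, and none passed. Both siFAM53C libraries were above every control for DYRK3. DYRK1A, DYRK2 and DYRK3 share 446, 594 and 115 exon bases with genes on the opposite strand.

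Genes for the substrates and partners of the kinases were listed by what they are known to do. Of 14 SR proteins 13 were tested, and 0 were called. At an unadjusted p under 0.05, 4 were lower and 0 higher, where 10.5% and 6.61% of all tested genes passed. The log2 fold change was below 0 for 11 of the 13, where 7391 of all 15341 tested genes were below 0. The median was -0.24. Both siFAM53C libraries lay below all controls for 6 and above for 1, where 18.8% and 16.7% of all tested genes did. SRSF1, a regulator of splice site choice, was lowest, at 335.9, 347.1 and 324.7 CPM against 262.3 and 272.9 CPM (-0.33, SE 0.10, adjusted p = 0.156), and SRSF5 was highest at 0.18. With a term for the library split, 6 SR proteins were called lower (SRSF1, SRSF3, SRSF7, SRSF10, SRSF11 and TRA2A), where 10.7% of all tested genes were called lower. SRSF1 then had -0.32 (adjusted p = 0.00876, in a range from 0.00876 to 0.5548 over the alternatives).

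Of 20 other RS-domain proteins and substrates of SRPK or CLK kinases, 0 were called, and the median was 0.12. For 15 of them the log2 fold change was above 0, where 7950 of all 15341 tested genes were. Both siFAM53C libraries lay above all controls for 7 and below for 3, where 16.7% and 18.8% of all tested genes did. At an unadjusted p under 0.05, 1 was lower and 5 were higher, where 10.5% and 6.61% of all tested genes passed. RSRC1, a splicing factor with an RS domain, was lowest at -0.43 (adjusted p = 0.2106). With a term for the library split 1 was called lower (RSRC1) and 1 higher (ACIN1), where 10.7% and 6.76% of all tested genes were called. U2AF1, the subunit that reads the 3′ splice site, was highest at 2.90 (SE 0.87, adjusted p = 0.1661), from 27, 18 and 24 counts in siCtrl and 402 and 36 in siFAM53C. siFAM53C replicate 1 set that value, which was 0.45 (adjusted p = 0.8413) without it. U2AF1 was called higher with DESeq2 (2.91, adjusted p = 0.00168), with no filter on low counts (2.90, adjusted p = 0.004377) and without siFAM53C replicate 2 (3.76, adjusted p = 0.003994). The adjusted p over all alternatives ran from 0.00168 to 0.8413. GRCh38 carries a near-identical second copy of U2AF1, so its counts are uncertain. Of 15 tri-snRNP proteins 14 were tested and 0 were called, with a median of -0.08. At an unadjusted p under 0.05, 1 was lower, where 10.5% of all tested genes passed. Both siFAM53C libraries lay below all controls for 4 and above for 1, where 18.8% and 16.7% of all tested genes did. PPIH was lowest at -0.42 and PRPF3 highest at 0.19.

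Of 19 partners and substrates of HIPK kinases, 1 was called lower and 1 higher, where 3.47% and 0.489% of all tested genes were called. The median was -0.07. At an unadjusted p under 0.05, 4 were lower and 1 higher, where 10.5% and 6.61% of all tested genes passed. Both siFAM53C libraries lay below all controls for 4 and above for 1, where 18.8% and 16.7% of all tested genes did. With a term for the library split 3 were called lower (CTBP2, LEF1 and TLE1) and 2 higher (PML and ZBTB4), where 10.7% and 6.76% of all tested genes were called. CTBP2, a transcriptional co-repressor, was at 154.6, 157.6 and 149.6 CPM against 107.2 and 102.4 CPM (-0.55, SE 0.10, adjusted p = 0.02372). PML, which builds the nuclear bodies that recruit HIPK2, was at 71.4, 63.6 and 69.9 CPM against 104.4 and 105.5 CPM (0.62, SE 0.10, adjusted p = 0.01791). For both genes the siFAM53C libraries lay clear of the controls. Both calls were lost without siCtrl replicate 1, siCtrl replicate 2, siFAM53C replicate 1 or siFAM53C replicate 2, with log2 fold changes from -0.59 to -0.52 for CTBP2 and from 0.57 to 0.65 for PML and adjusted p up to 0.2156 and 0.1382. CTBP2 shares 3795 exon bases and PML 586 with genes on the opposite strand.

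**Figure D5:**
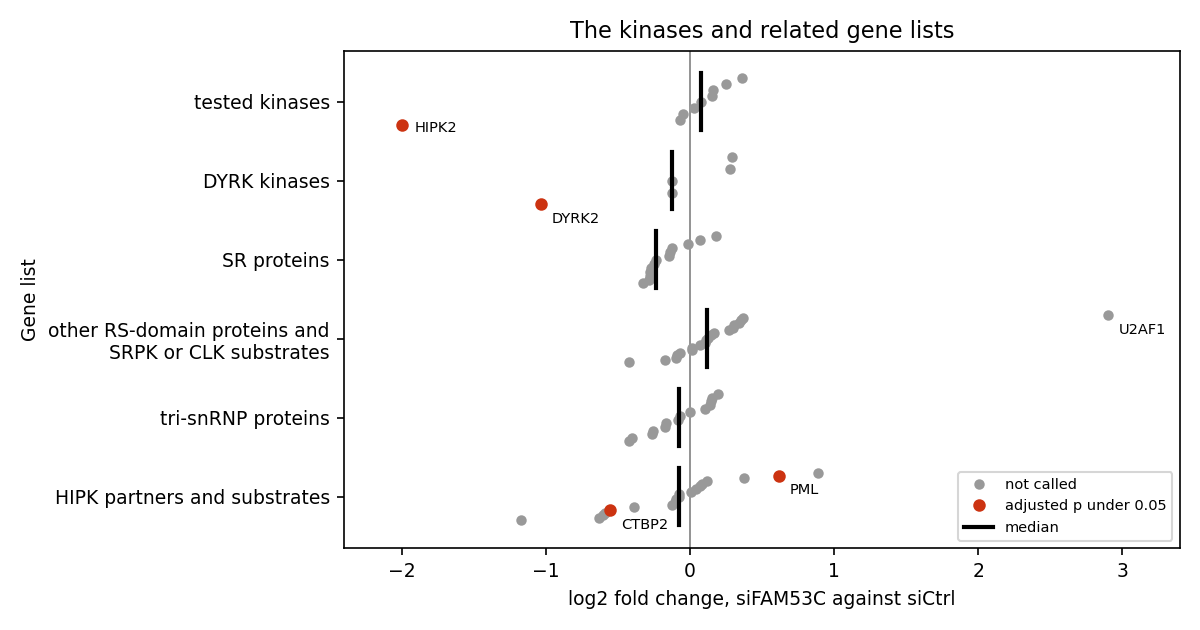
Log2 fold change of every tested gene in 6 lists, with called genes in red and a black line at each list's median. HIPK2, DYRK2 and CTBP2 are the genes called lower and PML the gene called higher, and the median of the SR proteins is -0.24.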

How the data were processed

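The authors trimmed paired reads with CutAdapt 2.10 (minimum length 25), aligned them to UCSC hg38 with HISAT2 and assigned them to genes with featureCounts. The deposited values are raw counts per gene, not normalized. The methods name reverse strandedness for the alignment only, so strand use in counting is not given in the sources used here. The tests were run with edgeR 4.0.16 (R 4.3.3). Genes with few counts were removed by filterByExpr, at a minimum of 10 counts and a total of 15, and the model had TMM factors, condition as the only term, and a robust quasi-likelihood test (Benjamini-Hochberg over all tested genes, threshold 0.05). "Called" means past that threshold. CPM used the TMM factors, and log2 CPM a prior count of 2. Totals of 19260124 to 25615415 counts limit precision for genes with few counts. Positions, lengths and 3′ UTRs came from GENCODE 44, which may differ from the authors' annotation. The fits were tested on simulated counts, where edgeR called 47 of 100 genes changed by 1 on the log2 scale. It called 78 of 100 genes changed by 2, with 13 false calls. A change of 1 was therefore often missed. The members and lists were chosen with earlier results of these data known. All members, HIPK4, SRPK3, FAM53C and the DYRK kinases were named. From each other list came the called genes or, with none, the lowest and highest. For the called member, the 3 nearest genes were named. The SR proteins and HIPK partners called with the library term, the markers and the neighbours of CLK2 were named beyond that rule, after their values were seen. Alternatives were DESeq2 1.42.0, limma-voom (limma 3.58.1), other size factors, no filter, replicate blocks, a library term, unadjusted p, leaving out each library, other lengths and the MANE 3′ UTR. No protein sequence was analysed here. Some genes are not reported here.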

Additional observations from a re-analysis of the deposited data

How the results depend on the processing

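HIPK2 was called lower in each of the 13 alternative fits with a test. The number of kinases called higher was 0 and became 1 (HIPK3) with a replicate block by titles, with a term for the library split and at an unadjusted p, and was 0 to 1 when 1 library was left out. Of all genes, 533 were called lower and 75 higher. These counts were 961 and 375 with no filter, 888 and 254 with DESeq2, 1636 and 1037 with the library term, and 1607 and 1014 at an unadjusted p, and library totals in place of TMM factors gave 121 higher. Leaving out 1 library gave 157 to 886 lower and 6 to 414 higher. With the replicate block they were 856 and 355 by the numbers in the titles and 1350 and 642 by those in the column names. By titles siCtrl replicate 3 stands alone in its block, and by column names siCtrl replicate 2 does. Each block thus in effect leaves that library out of the comparison. Deviations of same-numbered libraries correlated at 0.17 and -0.29 by titles. By column names the 2 pairs were at 0.17 and 0.37, while the differently numbered siCtrl replicate 2 and siFAM53C replicate 1 were at 0.285. With 2 siFAM53C libraries, each siCtrl library correlates with them at equal and opposite values. These values therefore cannot decide whether the numbers mark pairs. No label ties a number to a shared culture or day, so the main test did not pair the samples by number. The sides of the library split do rest on the number 3 in the column names. The block by column names called 3 of 13 tested SR proteins lower, and 3 of 19 HIPK partners lower and 2 higher. Beside these, it called 1350 lower and 642 higher of all 15341 tested genes.

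Log2 fold changes near 0 changed sign under some settings. Leaving out 1 library gave ranges of -0.15 to 0.22 for CLK1, -0.0083 to 0.21 for CLK3, -0.011 to 0.31 for CLK4, -0.034 to 0.31 for SRPK2 and -0.13 to 0.087 for PRPF4B. The values below 0 were without siCtrl replicate 2 or siFAM53C replicate 2 for CLK1, without siCtrl replicate 2 for CLK3, without siFAM53C replicate 2 for CLK4 and without siFAM53C replicate 1 for SRPK2. PRPF4B was above 0 without siCtrl replicate 3. CLK1 was also at -0.14 with the block by column names, -0.017 with the library term and -0.18 on the second side of the split, where CLK3 was at -0.14. With library totals SRPK1 was at 0.0042 and PRPF4B at 0.022, and PRPF4B was at 0.080 with the block by titles and 0.041 on the first side. None of these was called, and the cause was not tested. The small number of libraries limits all tests, and low counts limit CLK4, SRPK3 and HIPK4.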
